A study of Homo sapiens with 4 samples.

Results

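The nuclear genes for subunits of the mitochondrial respiratory chain, complexes I to V, were described across 4 arrays of OVSAYO cells, a human line of ovarian clear cell carcinoma (CCC). A gene was included when the RefSeq accession of a non-control spot led to a protein-coding gene with a symbol of the NDUFA, NDUFB, NDUFC, NDUFS or NDUFV series, SDHA to SDHD, UQCR, CYC1, COX4 to COX8 or ATP5. NDUFA4 and NDUFA4L2 were kept under these older symbols, since RefSeq now files them as COXFA4 and COXFA4L2. This rule, which uses no measured value, gave 85 genes of the 17721 with a symbol and 116 of the 41000 non-control probes. Of these genes, 36 belong to complex I, 4 to complex II, 9 to complex III, 18 to complex IV and 18 to complex V.

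The study asked which genes are activated by CoCl2, a hypoxia-mimicking agent, in a manner that depends on the transcription factor Sp1. NS-si cells received a negative control siRNA, and Sp1-si cells received siRNA against Sp1, which the labels give as a pool of one supplier and the methods as a product of another. Cells of both kinds were cultured for 40 h and either kept without CoCl2 or exposed to 0.5 mM CoCl2 for 4 h (NS-si CoCl2 and Sp1-si CoCl2). The legend in the paper names a vehicle control for the cells without CoCl2. It also gives a shorter culture before exposure than the labels do. Each condition was measured on 1 single-colour array, so there is no replicate, no test was run, and, with all 4 arrays on 1 slide, the position of an array and its condition cannot be told apart. All 4 conditions share the transfection and the cell line, and a single siRNA reagent does not separate the loss of Sp1 from its other effects.

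The respiratory chain passes electrons from NADH, taken up by complex I, and from succinate, taken up by complex II, through ubiquinone to complex III, cytochrome c and complex IV, where oxygen is reduced. Complexes I, III and IV pump protons out of the matrix, and complex V, the ATP synthase, lets them back in to make ATP. Most subunits are encoded in the nucleus and are described here, while a few central ones are encoded in mitochondrial DNA and fall outside the rule. In hypoxia, HIF is known to exchange certain complex IV subunits for other isoforms, and COX4I2 and NDUFA4L2 are the best-known such isoforms.

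The promoters below are shown because their genes had the clearest values described further on. SDHD was the complex II gene lowered with Sp1-si, NDUFV3 the gene most lowered by CoCl2 in NS-si cells, NDUFA6 a complex I gene raised with Sp1-si, and COX6A2 the gene with opposite CoCl2 ratios. Each is the 250 bases before the RefSeq start of the gene, 5′ to 3′ on the strand of the gene, on GRCh38.p14. Capitals mark matches to ACGTG or GCGTG (HIF core), GGGCGG (GC box, the Sp1 motif), TGCGCA (NRF1 core) and CCGGAAG (ETS core) on either strand.
SDHD, chr11:112086623-112086872, plus strand: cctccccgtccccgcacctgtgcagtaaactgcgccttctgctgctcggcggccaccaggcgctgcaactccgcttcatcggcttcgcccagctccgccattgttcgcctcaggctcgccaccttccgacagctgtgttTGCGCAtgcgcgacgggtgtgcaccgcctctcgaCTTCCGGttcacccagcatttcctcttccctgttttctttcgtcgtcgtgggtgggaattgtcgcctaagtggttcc
NDUFV3, chr21:42893059-42893308, plus strand: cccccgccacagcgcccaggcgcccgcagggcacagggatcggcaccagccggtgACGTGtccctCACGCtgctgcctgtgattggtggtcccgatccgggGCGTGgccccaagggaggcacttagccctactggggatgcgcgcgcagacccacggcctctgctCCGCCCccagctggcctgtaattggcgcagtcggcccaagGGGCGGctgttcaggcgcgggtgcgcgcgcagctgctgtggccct
NDUFA6, chr22:42090773-42091022, minus strand: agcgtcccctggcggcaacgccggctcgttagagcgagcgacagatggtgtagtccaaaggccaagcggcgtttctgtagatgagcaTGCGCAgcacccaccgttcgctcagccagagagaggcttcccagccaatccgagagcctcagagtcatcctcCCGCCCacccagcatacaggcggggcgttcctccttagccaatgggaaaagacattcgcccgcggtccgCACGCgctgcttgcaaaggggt
COX6A2, chr16:31428361-31428610, minus strand: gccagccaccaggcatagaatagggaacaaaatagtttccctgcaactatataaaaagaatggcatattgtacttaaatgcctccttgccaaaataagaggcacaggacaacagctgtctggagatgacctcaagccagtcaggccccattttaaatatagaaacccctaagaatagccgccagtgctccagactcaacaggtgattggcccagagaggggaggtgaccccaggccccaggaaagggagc

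The NDUFV3 promoter held 3 HIF cores and 2 GC boxes in these bases, the NDUFA6 promoter held 1 HIF core, 1 GC box and 1 NRF1 core, and the SDHD promoter held 1 NRF1 core and 1 ETS core. None of these letters was found in the COX6A2 window. Over windows of 250 bases before to 50 after the start, which RefSeq gave for 70 of the 85 genes, 60.0% of the respiratory chain promoters had a HIF core against 55.9% of 15843 promoters of protein-coding genes. The GC box was found in 60.0% against 58.5%. The NRF1 core was found in 27.1% against 10.8%, and the ETS core in 28.6% against 14.2%. The last pair of motifs, which belong to factors known to drive respiratory chain genes, was added after the values were seen. A match describes the letters of the window and not a bound factor, and TGCGCA reads the same on either strand.

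Of the 85 genes, 83 had a probe well above background on all 4 arrays, and these are called measured below, as are 14288 of all genes. Respiratory chain probes were bright. Their median processed signal was 12937 (NS-si), 12289 (Sp1-si), 9929 (NS-si CoCl2) and 13644 (Sp1-si CoCl2), and no spot of theirs was saturated or flagged as an outlier. The median over all measured genes was 792, 792, 669 and 916 on the same arrays. The NS-si CoCl2 array was therefore the dimmest and the Sp1-si CoCl2 array the brightest, and ratios below are log2 ratios after the 75th percentile of each array was set equal. The CoCl2 ratio compares cells with and without CoCl2 under 1 siRNA, and the Sp1 ratio compares Sp1-si with NS-si cells at 1 CoCl2 state, so each array enters 2 of these ratios. Signals of different probes are not comparable as RNA levels. The SP1 probe with 10 spots, which checks the silencing, had signals of 553, 39.2, 429 and 38.7 on the arrays in the same order. All 11 CCC and epithelial markers were measured, with Sp1 ratios without CoCl2 from -2.33 (NAPSA) to 2.38 (GPX3). Of 10 markers of other cell types, PTPRC, PECAM1, COL3A1 and WT1 did not rise well above background anywhere. The signals of the other 6 summed to 1860, 932, 1719 and 1264. Their Sp1 ratios without CoCl2 were -1.48 (CD68), -1.07 (LUM), -0.88 (DCN), -0.18 (CD3E), 0.04 (ESR1) and 0.43 (VWF). Under CoCl2, VWF alone was above 0, at 0.17. The part of these marker shifts in the Sp1 ratios of the respiratory chain was not tested.

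Exposure to CoCl2 was accompanied by slightly lower signals across the respiratory chain. In NS-si cells, 71 of the 83 measured genes had a CoCl2 ratio below 0, where 49.8% of all measured genes did. In Sp1-si cells, 71 of the 83 were below 0 as well, where 50.3% of all genes were. Both ratios were below 0 for 64 genes, against 36.3% of all genes. The shifts were small. The median CoCl2 ratio of the 83 genes was -0.16 in NS-si cells, with quartiles of -0.28 and -0.07, and -0.18 in Sp1-si cells, with quartiles of -0.28 and -0.06. The median over all measured genes was 0.00 in both. For a single gene, the typical SD of such a ratio was 0.06, estimated from replicate spots of other probes as bright as the members, and it covers neither the culture nor the array. Without any scaling between arrays, the median of all genes moved to -0.22 with NS-si and to 0.22 with Sp1-si cells, and the median of the respiratory chain to -0.39 and 0.04, so that its sign in Sp1-si cells turned, while its distance from all genes is not touched by a constant per array.

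Few members passed a log2 ratio of 0.5 in either direction. In NS-si cells, CoCl2 raised 1 of the 83 genes, where 13.1% of all genes were raised, and lowered 3, where 12.3% were lowered. In Sp1-si cells, it raised 0 of the 83, where 12.9% of all genes were raised, and lowered 4, where 13.8% were lowered. The share of members past 0.5 was thus below the share of all genes in either direction, though without scaling 27.7% of members and 24.5% of all genes were lowered in NS-si cells. Since most members are bright, they were also set beside genes of like signal. Among genes in the top 10% of signal, 46 members had median CoCl2 ratios of -0.14 with NS-si and -0.21 with Sp1-si, and all genes of that range had 0.05 and -0.03. In the 10% of genes below these, 22 members had -0.28 and -0.23, and all genes there had -0.02 and -0.02.

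**Figure D1:**
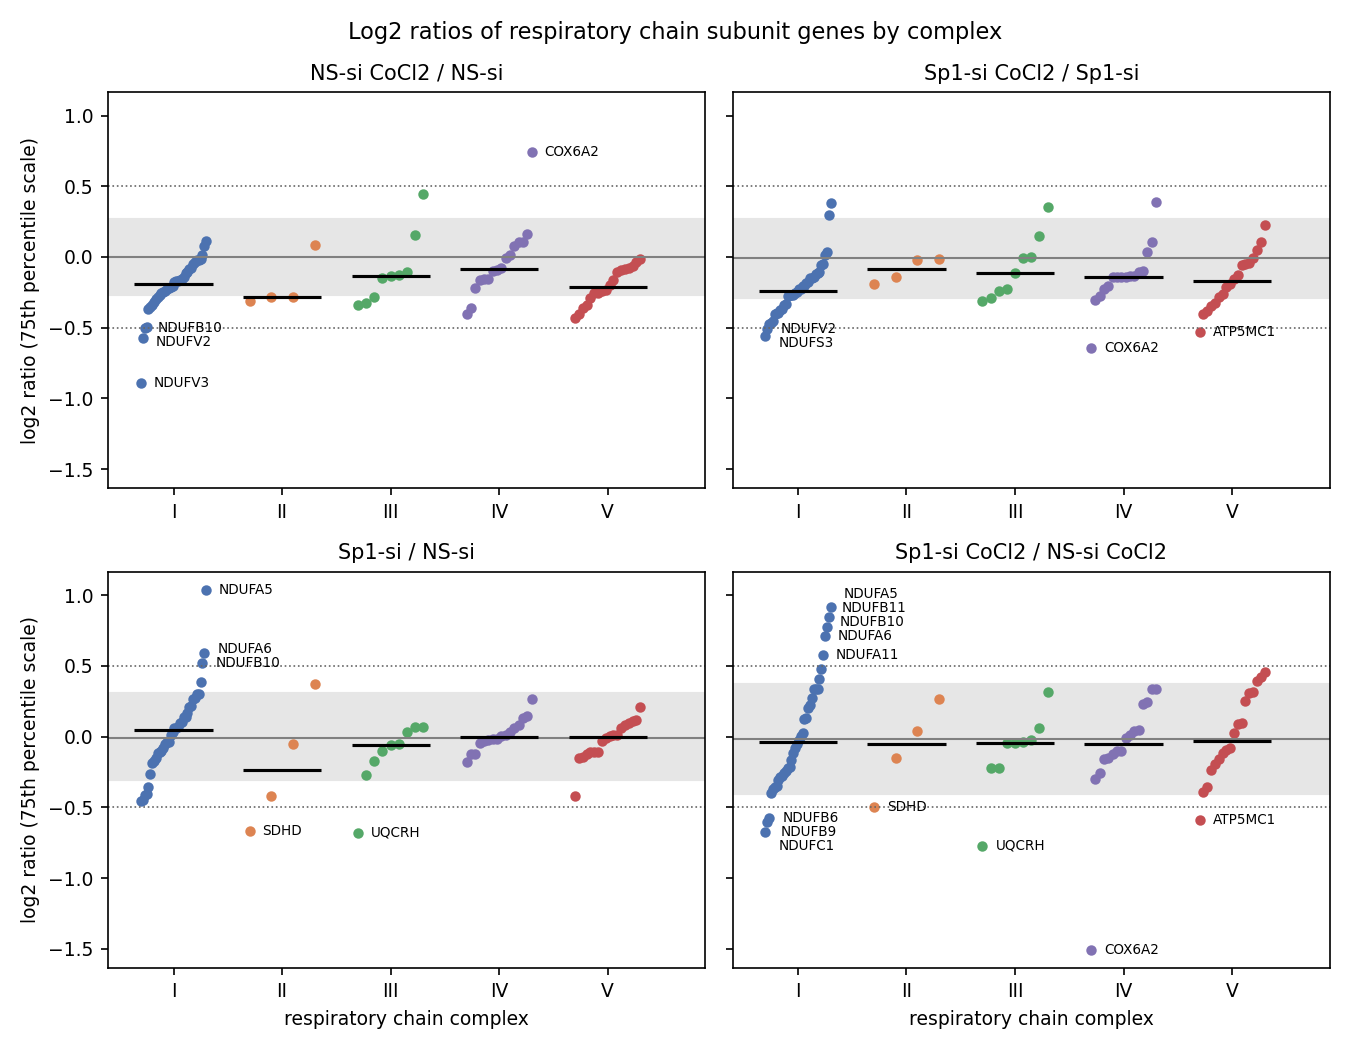
Log2 ratios of the 83 measured respiratory chain genes on the 75th percentile scale, by complex, for the 4 pairs of arrays. Each point is 1 gene and black bars are medians of a complex, the grey band holds the middle quartiles of all 14288 measured genes around their median line, dotted lines mark 0.5 and -0.5, and genes beyond them are named. Most points lie below 0 in the upper panels, and most spread around 0 in the lower panels.

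Complex I, the NADH dehydrogenase, had a median CoCl2 ratio of -0.19 with NS-si and -0.24 with Sp1-si over its 36 genes. Its lowest ratio was that of NDUFV3, an accessory subunit of the NADH-oxidising module. NDUFV3 had signals of 5464 (NS-si), 4968 (Sp1-si), 2516 (NS-si CoCl2) and 4188 (Sp1-si CoCl2). The NS-si CoCl2 array was the low one, with a CoCl2 ratio of -0.89 with NS-si and -0.47 with Sp1-si. All 3 of its probes gave this, with ratios of -0.83, -0.89 and -1.02 in NS-si cells. NDUFV2, a core subunit that carries an iron-sulfur cluster in the same module, had signals of 10639, 9980, 6126 and 8200 in the same order. It was the only member lowered in both, with CoCl2 ratios of -0.57 with NS-si and -0.51 with Sp1-si. NDUFB10, an accessory subunit of the membrane arm, had a CoCl2 ratio of -0.50 with NS-si and -0.25 with Sp1-si.

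Nuclear core subunits of complex I together hold the flavin and the iron-sulfur clusters, though some of them, such as NDUFS3, carry neither. Their CoCl2 ratios in NS-si cells included -0.57 for NDUFV2, -0.28 for NDUFS3, -0.24 for NDUFS1, -0.21 for NDUFS8, -0.18 for NDUFV1 and -0.01 for NDUFS7. In Sp1-si cells, NDUFS3 was lowered with a ratio of -0.56 and NDUFS1 had -0.40. NDUFS7, with -0.05 there, differed from 0 by less than the spread between spots in both kinds of cells. The highest complex I value in Sp1-si cells was that of NDUFA10, with 0.38, and its ratio in NS-si cells was 0.11. Its dimmer probe gave 0.52 in Sp1-si and -0.11 in NS-si cells, so the probes differed in sign in NS-si cells.

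Complex II, the succinate dehydrogenase of the TCA cycle, had median CoCl2 ratios of -0.28 with NS-si and -0.08 with Sp1-si over 4 genes. SDHA, the flavin subunit, had CoCl2 ratios of 0.08 and -0.02, and SDHB, the iron-sulfur subunit, had -0.28 and -0.19. The membrane anchors gave -0.29 and -0.02 for SDHC and -0.31 and -0.14 for SDHD. All but SDHA were thus lower by a similar amount in NS-si cells.

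Complex III, which hands electrons from ubiquinol to cytochrome c, had median CoCl2 ratios of -0.13 with NS-si and -0.11 with Sp1-si. Its catalytic subunits UQCRFS1, the Rieske protein, and CYC1, which carries a haem, had -0.32 and -0.13 in NS-si cells and -0.31 and 0.00 in Sp1-si cells. The core proteins without a redox group had 0.16 and 0.15 (UQCRC1) and -0.15 and -0.11 (UQCRC2). UQCRH, the hinge protein, had the highest ratios of the complex, 0.44 and 0.35, but its 1 probe was dim, with signals of 88.2, 53.0, 103 and 79.1, and the SD between spots of such probes was 0.13 and 0.11.

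In complex V, all 18 genes had a CoCl2 ratio below 0 in NS-si cells, from -0.43 for ATP5PB, the stalk subunit b, to -0.01 for ATP5MG. The median was -0.22, and it was -0.17 in Sp1-si cells, where 15 of the 18 were below 0. The subunits of the catalytic F1 part differed between the cells. ATP5F1A, the alpha subunit, had signals of 18839 (NS-si), 16794 (Sp1-si), 12170 (NS-si CoCl2) and 19128 (Sp1-si CoCl2), and CoCl2 ratios of -0.40 with NS-si and -0.04 with Sp1-si. ATP5F1B, the catalytic beta subunit, had 16874, 17490, 13619 and 23980, and CoCl2 ratios of -0.08 and 0.23. The gamma subunit ATP5F1C had -0.26 and 0.00, and the delta subunit ATP5F1D had -0.25 and 0.05. For these 4 genes, the CoCl2 ratio with Sp1-si exceeded that with NS-si by 0.25 to 0.37, against an SD between spots of 0.08 to 0.10, whereas the epsilon subunit ATP5F1E had a difference of -0.09. The same 4 genes were higher under CoCl2 with Sp1-si than with NS-si, by 0.25 to 0.42, a comparison that shares arrays with the first. Such a difference of the CoCl2 ratios was not particular to F1, as ATP5PB had 0.30, ATP5MJ 0.24 and NDUFV3 of complex I 0.42. Over complex V, 9 of the 18 differences were above 0 and 9 below.

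ATP5MC1, ATP5MC2 and ATP5MC3 encode the same c-ring protein with different import sequences, and their CoCl2 ratios were -0.36, -0.24 and -0.08 in NS-si and -0.53, -0.21 and -0.33 in Sp1-si cells. ATP5MC1 was the only complex V gene lowered by 0.5 or more. ATP5MF, a subunit of the membrane part, had -0.34 with NS-si and 0.10 with Sp1-si, and both of its probes gave a difference of 0.44. ATP5IF1, which inhibits ATP hydrolysis by the enzyme, had -0.20 and -0.38.

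Complex IV, the cytochrome c oxidase, had the median closest to 0 in NS-si cells, at -0.08, with 6 of its 16 measured genes above 0, and a median of -0.14 in Sp1-si cells. It is the complex with exchangeable isoforms. COX4I1, the ubiquitous form of subunit 4, had signals of 45551, 44779, 38754 and 47570 on the NS-si, Sp1-si, NS-si CoCl2 and Sp1-si CoCl2 arrays and CoCl2 ratios of -0.01 and -0.14. COX4I2, its hypoxia form, had signals of 43.2, 40.3, 37.3 and 61.9. Its CoCl2 ratio was 0.01 in NS-si cells, less than the SD between spots of 0.14, and 0.39 in Sp1-si cells, where the Sp1-si CoCl2 array was the high one.

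NDUFA4, once assigned to complex I and now to complex IV, had signals of 30628, 27126, 22480 and 27201 and CoCl2 ratios of -0.22 in both kinds of cells. NDUFA4L2, a HIF target that can take its place, was at the edge of detection. Its signals were 8.37, 5.90, 9.14 and 8.76, and only the NS-si CoCl2 array was well above background. The bound this gives is at least 1.28-fold higher with CoCl2 in NS-si cells, and at least 1.18-fold higher in NS-si CoCl2 than in Sp1-si CoCl2 cells. These bounds leave out the noise of so dim a probe. Its CoCl2 ratio of 0.35 in NS-si cells was less than the SD between spots of 0.48. Its Sp1 ratio of -0.46 under CoCl2 was within the SD of 0.46, so no rise can be read from them. At these signals, neither hypoxia isoform had a CoCl2 ratio of 0.5 or more in NS-si cells that could be measured on both arrays.

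**Figure D2:**
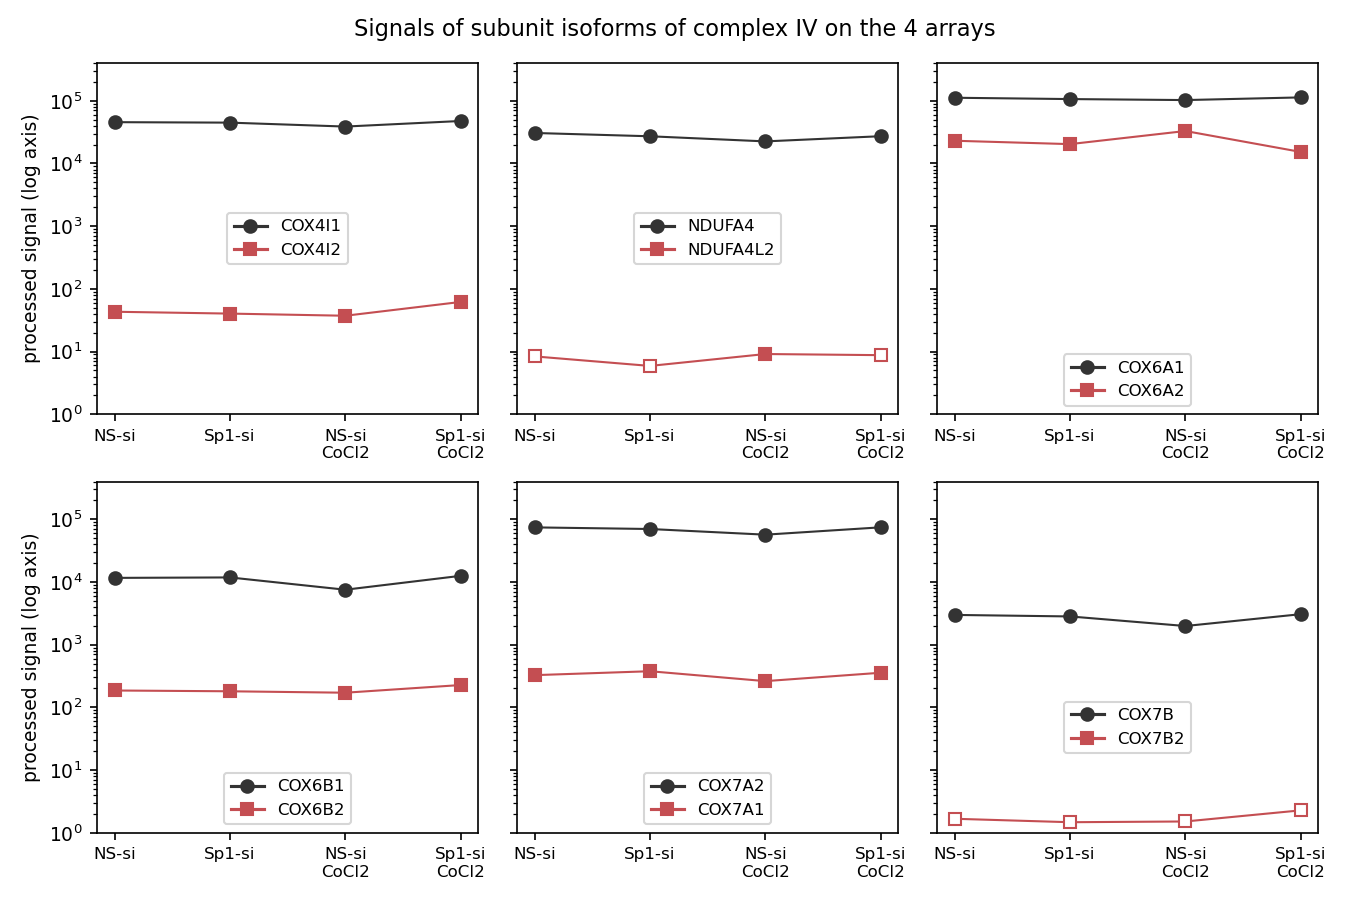
Processed signals, on a log axis, of 6 pairs of complex IV isoforms on the 4 arrays, with the ubiquitous form in black and the tissue or hypoxia form in red. Open symbols mark arrays on which the probe was not well above background; heights of different probes are not comparable as RNA levels. NDUFA4L2 has a filled symbol on the NS-si CoCl2 array alone, and COX6A2 is highest on the NS-si CoCl2 array.

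COX6A2, the heart and muscle form of subunit 6A, was the only member with CoCl2 ratios past 0.5 in size and of opposite sign. It was represented by 1 probe with 1 spot, and its signals were 23024 (NS-si), 20335 (Sp1-si), 32907 (NS-si CoCl2) and 15253 (Sp1-si CoCl2). CoCl2 raised it in NS-si cells, with a ratio of 0.74, and lowered it in Sp1-si cells, with -0.64. The difference between these ratios was -1.38, against an SD between spots of 0.09, and its Sp1 ratio under CoCl2 was -1.51. Without CoCl2, its Sp1 ratio was -0.12. COX6A1, the form found in most tissues, had signals of 111659, 106354, 102539 and 113102 and CoCl2 ratios of 0.10 and -0.14. The other muscle form, COX7A1, had CoCl2 ratios of -0.09 and -0.31, and COX7A2 had -0.16 and -0.14.

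COX6B1, a ubiquitous form, had CoCl2 ratios of -0.40 and -0.14, and COX6B2, the testis form, had 0.11 and 0.10. A second, dimmer COX6B2 probe was well above background only with Sp1-si, at least 2.75-fold higher without CoCl2 and at least 3.63-fold higher with it, whereas the first probe gave Sp1 ratios of 0.01 and 0.01, so the probes of this gene disagreed. COX7B had -0.36 and -0.11, and its testis form COX7B2, with signals of 1.47 to 2.28, was below that limit on each array. COX8A had -0.10 and -0.21. COX7A2L, which takes part in joining complexes III and IV, had -0.08 and 0.04.

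Silencing of Sp1 was not accompanied by a common shift of the respiratory chain. Without CoCl2, the median ratio of Sp1-si to NS-si cells over the 83 genes was -0.01, with quartiles of -0.12 and 0.10, and 41 genes were above 0 and 42 below. Sp1-si raised 3 of them, where 16.1% of all genes were raised, and lowered 2, where 16.3% were lowered. Under CoCl2, the median was -0.04, with 5 genes raised, where 19.6% of all genes were, and 7 lowered, where 20.7% were. Without scaling, the median under CoCl2 moved to 0.35, along with that of all genes, which moved to 0.38. Both medians of the members were so close to 0 that their sign changed between the scalings tried. In all, 68 of the 83 genes stayed within 0.5 in all 4 ratios. The same count was not made over all genes, so it has no background to be read against.

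SDHD, a membrane anchor of complex II whose promoter is printed above, was the best covered of the lowered genes. Its brightest probe had signals of 8417 (NS-si), 5090 (Sp1-si), 5807 (NS-si CoCl2) and 5406 (Sp1-si CoCl2). Each of its 4 probes gave a Sp1 ratio between -0.67 and -0.71 without CoCl2 and between -0.50 and -0.62 with it. The other anchor, SDHC, had Sp1 ratios of -0.42 and -0.15, while SDHB had -0.05 and 0.04 and SDHA had 0.37 and 0.26. The median of complex II was -0.24 without CoCl2, the lowest of the 5 complexes, and -0.05 with it. UQCRH was lowered too, with -0.68 and -0.77, on the dim probe described above. Its values were -0.37 and -0.58 with another background correction.

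Complex I held all of the genes raised with Sp1-si. NDUFA5, an accessory subunit, had signals of 2713 (NS-si), 5365 (Sp1-si), 2338 (NS-si CoCl2) and 5825 (Sp1-si CoCl2). Both Sp1-si arrays lay above both NS-si arrays, with Sp1 ratios of 1.04 and 0.92. Its second probe had ratios of 0.56 and 0.32, so the size differed between probes while the direction did not. NDUFA6, of which a promoter is printed above, had signals of 8390, 12188, 6782 and 14625 and Sp1 ratios of 0.59 and 0.71, and its second probe gave 0.58 and 0.88. NDUFB10 had signals of 7567, 10439, 4566 and 10296 and Sp1 ratios of 0.52 and 0.78. For these 3 genes, all accessory subunits, both Sp1-si arrays were above both NS-si arrays.

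**Figure D3:**
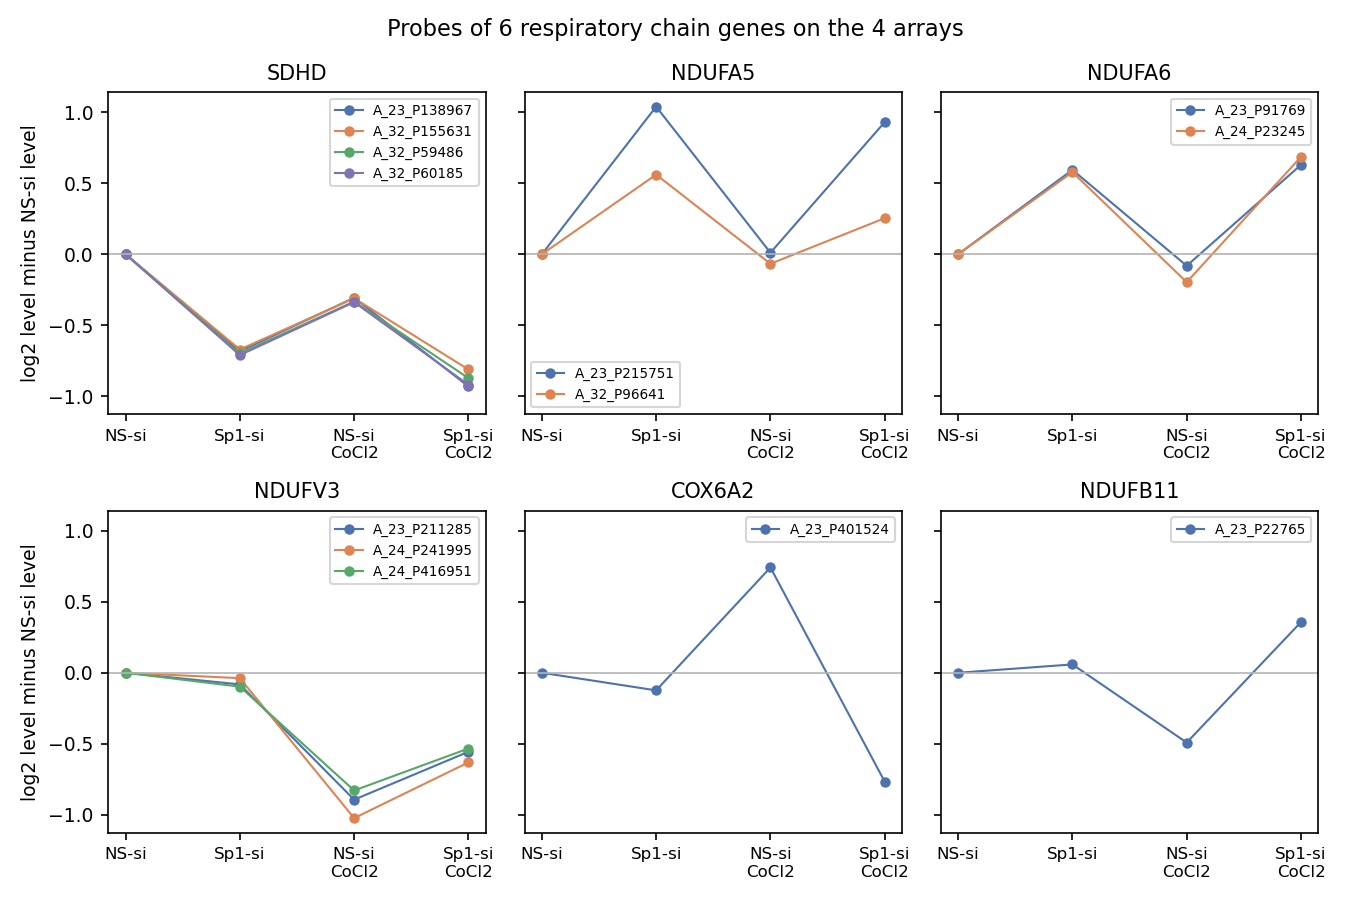
Log2 level of every measured probe of 6 genes on each array, on the 75th percentile scale, minus the level of the same probe on the NS-si array, with 1 line per probe. The 4 SDHD probes and the 3 NDUFV3 probes run together, those of NDUFA5 differ in size, and COX6A2 and NDUFB11 have 1 probe each.

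NDUFB11 and NDUFA11, accessory subunits of the membrane arm, passed 0.5 only under CoCl2. NDUFB11 had signals of 10325, 10349, 6281 and 14900 on the NS-si, Sp1-si, NS-si CoCl2 and Sp1-si CoCl2 arrays. Its Sp1 ratio was 0.06 without and 0.85 with CoCl2, and its CoCl2 ratio was -0.49 with NS-si and 0.30 with Sp1-si, a difference of 0.79 on its 1 probe. It was the only member with a difference of at least 0.5, which 8.03% of all genes reached, and COX6A2 the only one with -0.5 or less, which 10.4% reached. NDUFA11 had Sp1 ratios of 0.38 and 0.58. Lowered with Sp1-si under CoCl2 were also NDUFC1 (-0.67), NDUFB9 (-0.61), ATP5MC1 (-0.59) and NDUFB6 (-0.57), of which the ratios without CoCl2 were -0.45, -0.36, -0.42 and -0.46. In these 4 genes, both Sp1 ratios were therefore below 0. Both NDUFB9 probes gave this direction, with ratios within 0.07 of each other, and the other genes had 1 probe.

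Of the 83 genes, 27 had more than 1 measured probe. The range between probes of a gene had a median of 0.12 for the CoCl2 ratio in NS-si cells and of 0.17 for the Sp1 ratio under CoCl2. The widest were those of NDUFC2, where the bright probe had a Sp1 ratio of -0.28 under CoCl2 and a dim one 1.14, and of ATP5MC3, with -0.36 and 0.79. For the CoCl2 ratio in NS-si cells, UQCR11 had the widest range, with -0.13 on its brighter probe and -0.68 on the other. Probes of COX5A gave CoCl2 ratios of 0.16 and -0.29 in NS-si cells. The highest and lowest single-probe values should be read with this in mind, and whether a probe also binds related transcripts was not tested.

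Members with and without the promoter motif of Sp1 or HIF had overlapping quartiles. The 42 measured genes with a GC box had a median Sp1 ratio of 0.00 without CoCl2, with quartiles of -0.07 and 0.12, and the 26 without one had -0.08, with quartiles of -0.23 and 0.11. The 41 genes with a HIF core had a median CoCl2 ratio of -0.21 in NS-si cells and the 27 without one had -0.16, and the order was the other way round in Sp1-si cells, with -0.16 and -0.21.

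Genes that build the complexes without being part of them had CoCl2 medians further below 0 than the subunits, which was not tested. Of 52 measured assembly factors, 46 had a CoCl2 ratio below 0 with NS-si and 45 with Sp1-si, with medians of -0.35 and -0.38. CoCl2 lowered 10 of them with NS-si and 12 with Sp1-si, which is 19.2% and 23.1% of the list, where 12.3% and 13.8% of all genes were lowered. It raised 1 in each, which is 1.92% of the list, where 13.1% and 12.9% of all genes were raised. The lowest was COA7, a factor of complex IV assembly, with signals of 2741 (NS-si), 2119 (Sp1-si), 980 (NS-si CoCl2) and 1096 (Sp1-si CoCl2) and CoCl2 ratios of -1.26 and -1.18. The raised one was COX19, which serves copper delivery to complex IV, with 1.24 and 0.94. Sp1-si without CoCl2 lowered 10 assembly factors and raised 2, which is 19.2% and 3.85% of the list against 16.3% and 16.1% of all genes, with a median of -0.17, from -1.33 for NUBPL, an iron-sulfur factor of complex I, to 0.84 for COX19.

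The electron carriers and their makers, together with the subunit NDUFAB1 that the name rule leaves out, had median CoCl2 ratios of -0.46 with NS-si and -0.35 with Sp1-si over 11 genes. Of these, 4 were lowered in NS-si cells (36.4%, against 12.3% of all genes) and 1 was raised (9.09% against 13.1%). In Sp1-si cells, 1 was lowered (9.09% against 13.8%) and 1 raised (9.09% against 12.9%). COQ4, of ubiquinone synthesis, had -1.06 and -0.35, and COQ8A, a regulator of that pathway, had 1.37 and 1.43. COQ8A was also the highest with Sp1-si without CoCl2, at 1.28, and COQ5, a methyltransferase of the pathway, the lowest, at -1.70. Cytochrome c itself (CYCS) had CoCl2 ratios of -0.07 and -0.17 and Sp1 ratios of -0.52 and -0.63. The mitochondrial ribosome, which makes the subunits encoded in mitochondrial DNA, had 70 of 75 protein genes below 0 with NS-si and 66 with Sp1-si, with medians of -0.31 and -0.27, and 12 and 8 lowered and 0 raised. Of all genes, 12.3% and 13.8% were lowered, so the lowered counts of 75 lie near the background. The raised counts of 0 lie below it, as 13.1% and 12.9% of all genes were raised.

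At the scaling used here, the comparison sets had medians nearer to 0. The medians of 84 cytosolic ribosomal protein genes were -0.02 and -0.06, and those of 37 proteasome subunit genes were 0.01 and 0.00. The TCA cycle and pyruvate dehydrogenase genes had -0.12 and -0.08 over 19 genes, with IDH2 highest at 0.21 and PDP1, a phosphatase that activates pyruvate dehydrogenase, lowest at -0.67 in NS-si cells. In Sp1-si cells, the CoCl2 ratio of PDP1 was -2.72. Its Sp1 ratio without CoCl2 was 1.57, the highest of the list, and that of SUCLG2, a subunit of succinyl-CoA ligase, was the lowest, at -1.13. Regulators of mitochondrial biogenesis had 0.06 and 0.05 over 15 genes, from TFB1M at -0.54 to POLG, the mitochondrial DNA polymerase, at 0.68 in NS-si cells. With Sp1-si without CoCl2, TFB1M was the highest of them, at 0.61, and GABPA, an ETS factor, the lowest, at -0.42. PPARGC1A was not detected well above background. Relative to all genes, the medians of the assembly factors, the electron carriers, the mitochondrial ribosome, the TCA cycle and pyruvate dehydrogenase genes and each of the 5 complexes stayed below 0 in both CoCl2 ratios under every scaling and background setting tried. Scalings that shift a whole array by a constant cannot change such a distance. Quantile normalization, normexp and averaging of probes can. The relative medians of the cytosolic ribosome and the proteasome changed sign between settings in at least 1 of the CoCl2 ratios. With quantile normalization, the cytosolic ribosome lay below all genes by a median of -0.20 in NS-si cells and of -0.15 in Sp1-si cells, and the respiratory chain by -0.24 and -0.28.

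**Figure D4:**
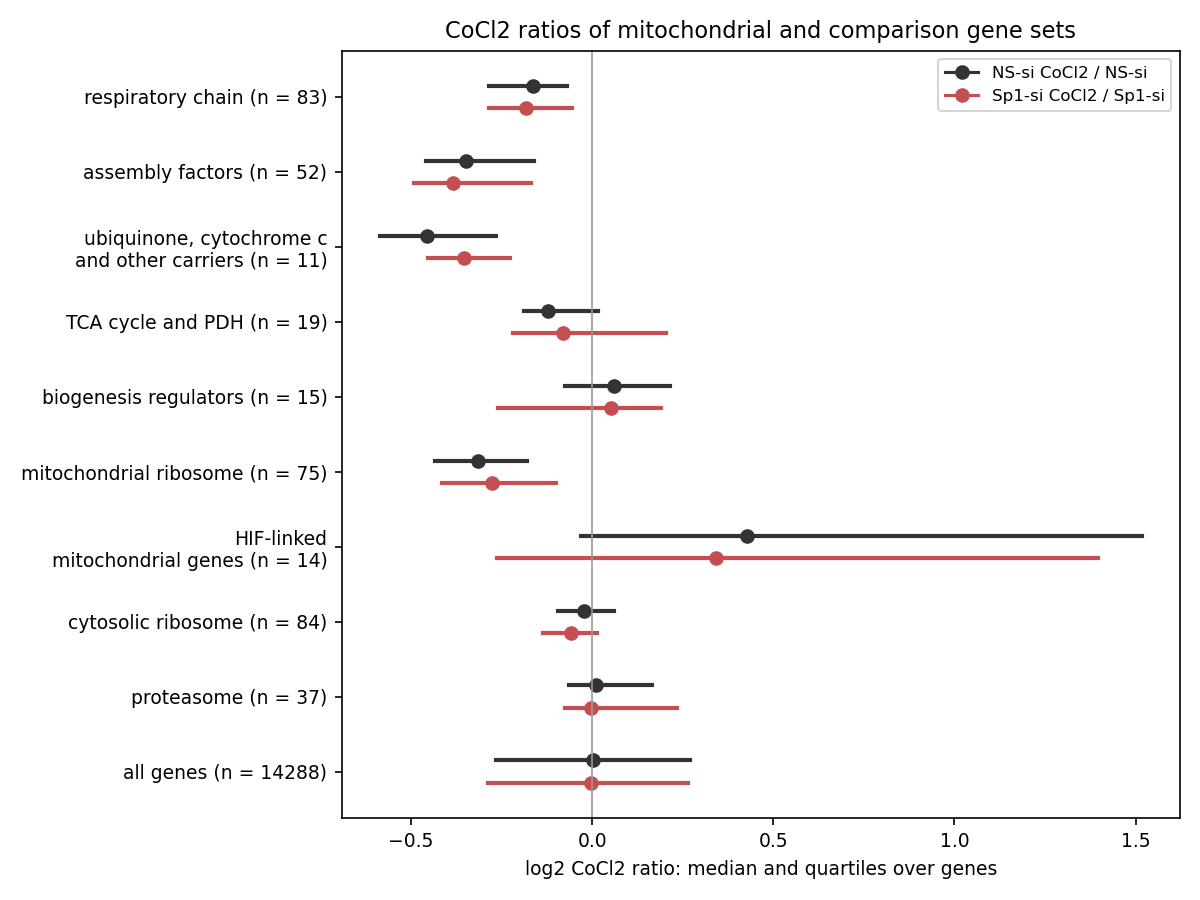
Median (points) and quartiles (lines) of the log2 CoCl2 ratio over the measured genes of each set, in NS-si cells (black) and Sp1-si cells (red), with the number of genes. The respiratory chain, its assembly factors, electron carriers and the mitochondrial ribosome have medians below 0, and HIF-linked mitochondrial genes have medians above it, with lower quartiles below 0.

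Genes through which HIF is known to act on mitochondria had medians above 0. Of 14 measured genes, CoCl2 raised 7 and lowered 1 in each kind of cell, with medians of 0.43 and 0.34. Of all genes, 13.1% and 12.9% were raised. The list is not uniform, since 4 and 5 of the 14 had ratios below 0. MXI1, which opposes MYC, had signals of 382 (NS-si), 1148 (Sp1-si), 1185 (NS-si CoCl2) and 4060 (Sp1-si CoCl2) and CoCl2 ratios of 1.86 and 1.60, and its Sp1 ratio without CoCl2, 1.64, was also the highest of the list. PDK1, the kinase that shuts off pyruvate dehydrogenase, had 1.81 and 2.89, with a Sp1 ratio of -0.82 without CoCl2, and BNIP3, a mitophagy receptor, had 1.72 and 2.22. LONP1, the protease known to degrade COX4I1 when COX4I2 is made, had 0.73 and 0.51. CHCHD4, which imports subunits into the intermembrane space, was the lowest in NS-si cells, at -0.60.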

How the data were processed

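Total RNA of the 4 conditions was labelled with Cy3 and hybridised to an Agilent 4x44K whole human genome array, annotated on hg18, 1 array per condition. The authors deposited background-corrected intensities from Agilent Feature Extraction 10.5.1.1. The value table the authors deposited equals them times 1 constant per array, and no further normalization is named in the sources used here.

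The log2 processed signal minus the 75th percentile of its array over non-control spots, without outlier spots, was used. Detection required the scanner's well-above-background flag in at least 50% of a probe's spots. Each gene took the probe whose mean log2 level over the 4 arrays was highest. RefSeq accessions gave 26222 of 41000 probes a symbol. A gene counted as raised or lowered at a log2 ratio of at least 0.5 in size, if detected on all 4 arrays, and no p-value was computed. The SD of a ratio is the median between-spot SD of the 50 probes closest in signal among 264 with 10 spots each, and every member probe had 1 spot. Where only 1 side of a ratio was detected, the other was set to the lowest detected signal on its array, or to its own if higher. Errors cover the spots only, and having 1 array per condition limits the precision.

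Named are the 3 highest and 3 lowest members of each ratio and of the difference of the CoCl2 ratios, all members past 1 in size, those with a role other than accessory, single form or membrane part, those not detected on all arrays, and the highest and lowest of each list. Genes beyond this rule are named where a count of members past 0.5 is spelled out, or were chosen after their values were seen. A member that this rule names is not reported here. NDUFB2-AS1, a long non-coding RNA, was left out. Members, lists and markers were chosen with earlier results of these data known. The grouping by signal was added after the values were seen. Alternatives were quantile, median or no scaling, a percentile over detected probes, the deposited value table, normexp with an offset of 50, keeping outlier spots, averaging the probes of a gene, no filter on dim probes, and a log2 ratio of 1. Normexp was run on the median spot and background signals. The counting was tested on simulated data. Sequences are those of RefSeq on GRCh38.p14. R 4.3.3 with limma 3.58.1 served for normexp, and Python 3.11.15 for the rest, with pandas 2.3.3, numpy 2.4.6, matplotlib 3.10.9 and scipy 1.17.1.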

Additional observations from a re-analysis of the deposited data

Results flagged for a closer look

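COX6A2, the heart and muscle form of a complex IV subunit, is listed because its CoCl2 ratio was 0.74 with NS-si and -0.64 with Sp1-si, on the log2 scale, a difference of -1.38. With 1 array per condition, the difference was not tested. Of all 14288 measured genes, 90 had CoCl2 ratios of at least 0.5 in size with opposite signs, and 1 of the 83 respiratory chain genes did. The difference lay between -1.38 and -0.93 over the settings tried.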

How the results depend on the processing

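Of 216 values of single genes past 0.5 under these alternatives, 0 changed sign and 151 moved by less than the spread between spots. Settings that shift an array by a constant moved each ratio by less than 0.5, so they could not turn these signs. Keeping outlier spots could not do so either. Of 125 counts and medians relative to all genes, 100 stayed within 1.5 times the count or within the spread between spots. With quantile normalization, CoCl2 lowered 5 members in NS-si cells and raised 1 and lowered 8 in Sp1-si cells, and the median of the members minus that of all genes was -0.24 and -0.28. With median scaling, CoCl2 lowered 1 in Sp1-si cells, and Sp1-si raised 10 and lowered 3 under CoCl2. With no scaling, which moves the median of all genes itself, CoCl2 lowered 23 in NS-si cells (27.7%, against 24.5% of all genes) and raised 4 (4.82% against 24.5%) and lowered 0 in Sp1-si cells, and Sp1-si lowered 4 without CoCl2 and raised 27 (32.5% against 41.4%) and lowered 1 under it. With the deposited value table, CoCl2 lowered 5 with NS-si and 7 with Sp1-si. With normexp, Sp1-si without CoCl2 lowered 1, and the median difference of the CoCl2 ratios minus that of all genes was 0.076. At a log2 ratio of 1, CoCl2 raised 0 and lowered 0 in NS-si cells and lowered 0 in Sp1-si cells, and Sp1-si raised 1 and lowered 0 without CoCl2 and raised 0 and lowered 1 under it. Of 80 shares of members raised or lowered under the alternatives, 79 were below the share of all genes under the same setting, and the exception is the 23 lowered without scaling. The cause of these changes was not tested. The median of the members minus that of all genes was below 0 for the CoCl2 ratio with NS-si (-0.24 to -0.16) and with Sp1-si (-0.28 to -0.13) in each of these settings. Median scaling, no scaling, the percentile over detected probes and the deposited value table shift an array by a constant. They cannot change this difference, so its agreement there, also among the 100 of 125, was fixed in advance. Keeping outlier spots changed no member spot. The medians of the Sp1 ratios and of the difference of the CoCl2 ratios, all close to 0, changed sign between settings, and no direction is given for them.

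No paired analysis was possible because each condition has 1 array. For the same reason no array was left out. A planned alignment of paralogous proteins was not run. Dim probes limit NDUFA4L2, COX7B2, COX4I2 and UQCRH.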
